A study of Mus musculus with 4 samples.

Results

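Markers of myeloid cells, B cells, red cells and platelets were measured in mouse Th17 cells grown from PRAK KO and wild-type (WT) naive CD4+ T cells. The set holds 33 genes, chosen by symbol as markers of cells other than T cells, out of 17921 genes in the deposited table, and all 33 were found. It was chosen with earlier results of these data known. Its counts beside the shares of all genes are therefore a description and no test of the set. They fall into 22 myeloid genes, 7 B cell genes, 2 red cell genes and 2 platelet genes. The levels show how much RNA of these genes a culture that was started from enriched T cells still held.

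Each culture began with enriched naive CD4+ T cells of 1 mouse, with 2 PRAK KO and 2 WT mice, and was polarised toward Th17 cells in vitro for 72 h. PRAK is the protein kinase encoded by Mapkapk5, and Th17 cells are helper T cells named for interleukin 17. All cells of a culture on day 3 went into 1 library of total RNA per mouse, here called PRAK KO 1, PRAK KO 2, WT 1 and WT 2 after the mouse numbers. The labels describe enrichment and name no sort or purity, no strain, no age and no knockout allele. No step that removes other cells after the culture is named.

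Myeloid cells (macrophages, monocytes, granulocytes and dendritic cells) sense microbes through surface lectins and Fc receptors, many of which signal through small adaptor proteins with tyrosine motifs. Their genes are driven by the transcription factors PU.1 and C/EBP alpha. B cells carry an antigen receptor whose signalling chains are CD79A and CD79B, under the lineage factor PAX5. Mature helper T cells are not known as a main source of most of these transcripts, although Ctss, Cd68 and some others are also found at low levels outside myeloid cells.

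T cell genes were abundant, as the label says. Thy1, a surface protein of mouse T cells, stood at 1497 TPM (a length-scaled level with the same sum in each library) in PRAK KO 1 and 1633 in PRAK KO 2, against 1084 in WT 1 and 1170 in WT 2. Cd3e, a chain of the T cell receptor complex, lay between 231 and 297 TPM over the 4 libraries. The 16 T cell genes found of 18 listed summed to 7172 and 7608 TPM in the PRAK KO libraries and to 6544 and 6660 TPM in the WT libraries. Mapkapk5, the gene knocked out, had 18.3 and 18.4 TPM in PRAK KO against 29.8 and 31.2 TPM in WT, a fall (log2 fold change -0.83 ± 0.13 SE, adjusted p = 0.0194) in the direction of the labels that leaves a part of the transcript. The deleted stretch is not given, and a total over the whole gene cannot check the knockout further. Each library held between 19418012 and 20125124 expected counts. The 2 PRAK KO libraries differed more from each other (r = 0.979 across genes on log2 CPM, counts scaled to library size) than the 2 WT libraries did (r = 0.995).

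Most myeloid genes lay higher in PRAK KO cultures, and Ly6g fell. Of 22 myeloid genes 20 were abundant enough to test, and 11 rose, 1 fell and 8 did not pass (edgeR quasi-likelihood test, Benjamini-Hochberg adjusted p under 0.05 over all 12680 genes tested). The share of all genes tested that were called higher in PRAK KO was 5.14%, and the share called lower was 8.23%. The median log2 fold change was 2.47 over the 20 tested and 2.51 over all 22 with no filter, against 0.02 over all genes tested. Clec4n, Cebpa and Adgre1 passed the filter on low counts through the PRAK KO libraries alone, so they could enter the test only by being higher there. Among the 15 genes that reached the filter in both WT libraries, 7 rose and 1 fell. Both PRAK KO libraries lay above both WT libraries for 18 of the 22 genes, which is the case for 31.7% of all genes tested, and both lay below for 1, against 31.4%. In bulk RNA, more cells of a type and more RNA per cell cannot be told apart.

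The myeloid count changed with the libraries used, and so did the count over all genes. It was 16 without PRAK KO 1, 14 without PRAK KO 2, 4 without WT 1 and 6 without WT 2, while the number of all genes called higher was 2224, 2836, 182 and 201 in the same 4 fits. Each such fit takes its spread from the pair of the other genotype and assumes that the lone library varies like it. Over all genes the WT pair is the closer one, so a pass without a PRAK KO library rests on the smaller spread. Such a pass is given below as a value only. For the B cell genes the PRAK KO pair is the closer one. Over all genes 652 were called higher and 1043 lower in PRAK KO, or 918 higher and 864 lower when libraries were scaled by size alone. The myeloid count was 11 under both scalings.

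In TPM, the 22 myeloid genes summed to 287 in PRAK KO 1 and 574 in PRAK KO 2, against 118 in WT 1 and 154 in WT 2, and the ratio of the means was 3.17. The 7 B cell genes summed to 107 and 92.8 TPM in PRAK KO 1 and 2, against 26.9 in WT 1 and 67.5 in WT 2, a ratio of 2.11. The red cell genes summed to 0.81 and 6.11 TPM in PRAK KO 1 and 2, against 6.81 and 13.7 in WT 1 and 2. The platelet genes summed to 2.63 and 3.81 TPM in PRAK KO, against 0.51 and 0.93 in WT. Beside them, 12 listed NK cell and CD8 T cell genes, which are no members, summed to 527 and 494 TPM in PRAK KO 1 and 2, against 133 and 261.5 in WT 1 and 2, a ratio of 2.58. Their part in the marker differences was not tested. For the myeloid, B cell and platelet genes the summed levels of the genotypes did not overlap. For the red cell genes they also did not overlap but were lower in PRAK KO. Single genes separated the genotypes upward in 31.7% and downward in 31.4% of all genes tested. The red cell sums leave out near-identical copies. With these, the beta globin pair overlapped (5 and 26 counts in PRAK KO, 22 and 57 in WT), and the alpha globin pair did not (15 and 23, 28 and 71).

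**Figure D1:**
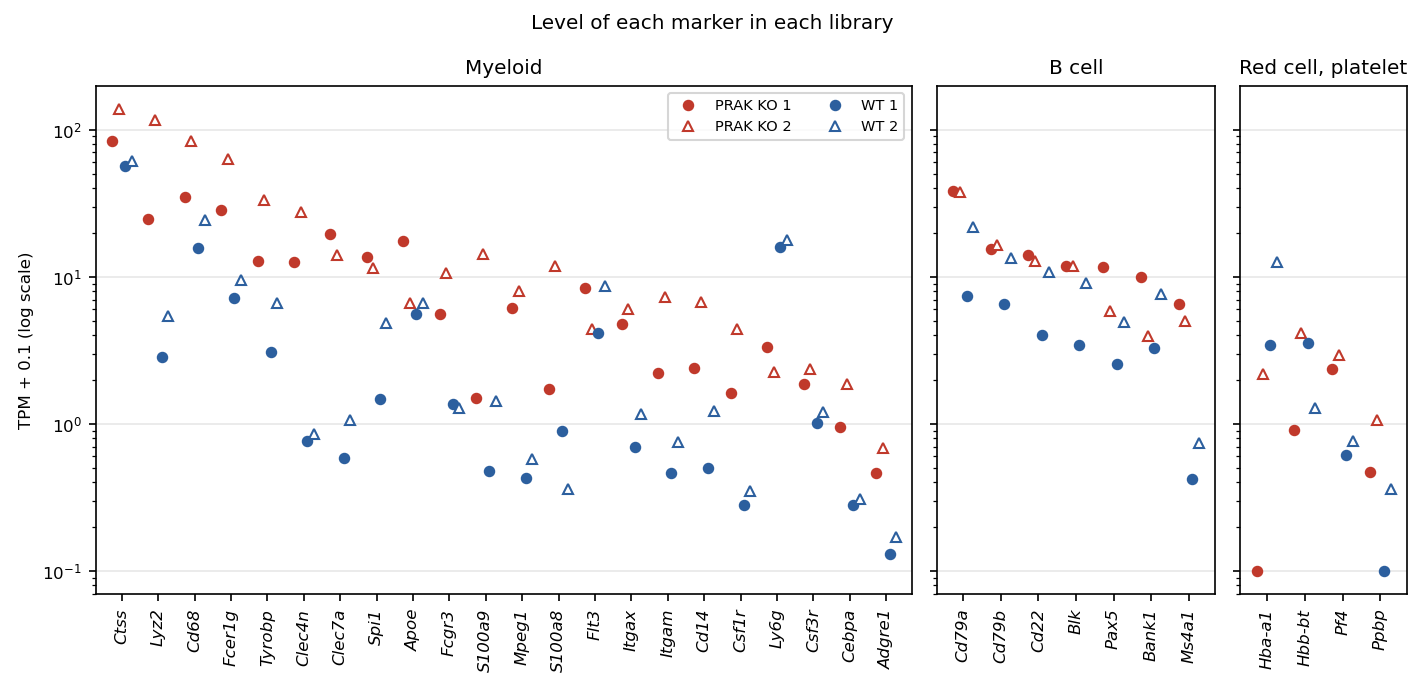
Level of each of the 33 markers in each library, as TPM plus 0.1 on a log axis, with PRAK KO in red and WT in blue, mouse 1 as filled circles and mouse 2 as open triangles. Clec7a, Clec4n and Mpeg1 were separated between the genotypes by the widest gaps among the myeloid genes, while Ly6g lay higher in both WT libraries.

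Of the sensing receptors and their adaptors, Clec7a, Clec4n, Fcer1g and Fcgr3 rose, and Tyrobp and Cd14 did not pass. Clec7a encodes dectin-1, a receptor for fungal beta-glucan (chromosome 6, 129461591 to 129472785, GRCm38.p6). It had 19.4 TPM in PRAK KO 1 and 14.0 in PRAK KO 2, against 0.49 in WT 1 and 0.96 in WT 2. Both PRAK KO libraries were far above both WT libraries, and the log2 fold change was 4.41 ± 0.37 SE (edgeR adjusted p = 0.00415), or 5.01 without WT 2. Clec4n encodes dectin-2, a receptor for fungal mannans (chromosome 6, 123229843 to 123247024). It had 12.4 and 27.6 TPM in PRAK KO 1 and 2, against 0.67 and 0.75 TPM in WT 1 and 2. Its log2 fold change was 4.78 ± 0.55 (SE, adjusted p = 0.00884), or 4.04 without PRAK KO 2. Its WT values rest on 8 and 9 counts. The 2 lectin genes did not follow each other between the PRAK KO mice, since Clec7a was higher in PRAK KO 1 and Clec4n in PRAK KO 2.

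Dectin-2 and Fc receptors need the adaptor encoded by Fcer1g, the Fc receptor gamma chain (chromosome 1, 171229572 to 171234349). Fcer1g had 28.6 and 63.5 TPM in PRAK KO 1 and 2, against 7.05 and 9.48 TPM in WT 1 and 2, and it rose (log2 fold change 2.39 ± 0.47 SE, adjusted p = 0.0324). Fcgr3, a low-affinity receptor for immunoglobulin G that uses this chain, had 5.50 and 10.5 TPM in PRAK KO, against 1.27 and 1.18 TPM in WT (2.49 ± 0.45 SE, adjusted p = 0.0262). Both genes separated the genotypes without overlap and were highest in PRAK KO 2. Tyrobp, which encodes the related adaptor DAP12, had 12.8 and 33.4 TPM in PRAK KO, against 2.98 and 6.57 TPM in WT, and did not pass (2.19 ± 0.64 SE, adjusted p = 0.0815). Cd14, the lipopolysaccharide co-receptor gene, had 2.30 and 6.69 TPM in PRAK KO, against 0.40 and 1.13 in WT, and did not pass either (2.46 ± 0.75 SE, adjusted p = 0.0892). Fcer1g had an adjusted p of 0.0957 without WT 1 and 0.0535 without WT 2, and Fcgr3 one of 0.0636 and 0.0641. Without PRAK KO 2 the fold changes were 1.63 for Fcer1g and 1.89 for Fcgr3. With the spread of the WT pair alone, Cd14 had an adjusted p of 0.000357 without PRAK KO 1, and Tyrobp one of 0.000292 without PRAK KO 1 and 0.0328 without PRAK KO 2.

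Genes of lysosomes and of microbe killing included the most abundant members. Ctss, the protease cathepsin S of antigen-presenting cells (chromosome 3, 95526786 to 95556405), had 84.1 and 138 TPM in PRAK KO 1 and 2, against 56.5 and 61.3 TPM in WT 1 and 2. Its log2 fold change was 0.82 ± 0.27 (SE) and did not pass (adjusted p = 0.105), with adjusted p-values of 9.5e-06 without PRAK KO 1 and 0.0169 without PRAK KO 2, where the WT pair alone gives the spread. Cd68, a lysosomal glycoprotein gene of macrophages, had 34.8 and 83.4 TPM in PRAK KO, against 15.6 and 24.1 TPM in WT, and did not pass (1.49 ± 0.48 SE, adjusted p = 0.0998, and 0.00677 without PRAK KO 1). Ctss had the highest mean WT level of the 22 myeloid genes (58.9 TPM) and Cd68 the next (19.8 TPM).

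Lyz2, the lysozyme gene of macrophages and granulocytes (chromosome 10, 117277541 to 117282272), had 24.7 TPM in PRAK KO 1 and 117 in PRAK KO 2, against 2.73 in WT 1 and 5.28 in WT 2. It rose (log2 fold change 4.06 ± 0.86 SE, adjusted p = 0.0387), while PRAK KO 2 stood 5.09-fold above PRAK KO 1 in CPM, against 1.99-fold for WT 2 over WT 1. The call was lost without WT 1 (adjusted p = 0.622) or WT 2 (0.642), and the fold change was 4.80 without PRAK KO 1 and 2.45 without PRAK KO 2. Lyz1 is a close copy of Lyz2 and its reads can be shared with it. The pair together had 280.0 and 1394 expected counts in PRAK KO 1 and 2, against 31.0 and 63.0 in WT 1 and 2. Mpeg1, which encodes the pore-forming protein perforin-2 of macrophages (chromosome 19, 12460770 to 12465285), had 6.05 and 7.87 TPM in PRAK KO, against 0.33 and 0.48 TPM in WT. It rose with the smallest standard error among the myeloid genes that rose (4.01 ± 0.33 SE, adjusted p = 0.00415).

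Surface integrins and the macrophage marker F4/80 stood at 7.16 TPM or less in every culture. Their 3 genes were called higher, as were 5.14% of all genes tested. Itgam, the CD11b chain (chromosome 7, 128062640 to 128118491), had 2.13 and 7.16 TPM in PRAK KO 1 and 2, against 0.36 and 0.65 TPM in WT 1 and 2 (log2 fold change 3.11 ± 0.71 SE, adjusted p = 0.0453). Its neighbour Itgax, the CD11c chain of dendritic cells (chromosome 7, 128129526 to 128150657), had 4.64 and 5.96 TPM in PRAK KO, against 0.60 and 1.06 TPM in WT (2.55 ± 0.36 SE, adjusted p = 0.0146). Both rose, and Itgax differed less between the PRAK KO mice than Itgam did. Adgre1, which encodes F4/80, had 0.36 and 0.59 TPM in PRAK KO, against 0.03 and 0.07 TPM in WT. These are 12 and 19 counts in PRAK KO against 1 and 2 in WT (3.19 ± 0.69 SE, adjusted p = 0.0394). The gene reached the filter through the PRAK KO libraries alone and could enter the test only by being higher there. Adgre1 did not pass with DESeq2 (adjusted p = 0.104), and neither Adgre1 (0.0757) nor Itgam (0.0717) passed with limma on log2(TPM + 1), where Csf1r (0.0518) and Cebpa (0.0572) were also lost. Itgam had an adjusted p of 0.221 without WT 1 and 0.141 without WT 2, and Adgre1 one of 0.212 and 0.136. The fold change of Itgam was 3.76 without PRAK KO 1 and 1.91 without PRAK KO 2.

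Among growth factor receptors, the one for macrophages rose and the others did not pass. Csf1r, the receptor for macrophage colony-stimulating factor (chromosome 18, 61105572 to 61131139), had 1.53 and 4.35 TPM in PRAK KO 1 and 2, against 0.18 and 0.25 TPM in WT 1 and 2 (log2 fold change 3.67 ± 0.68 SE, adjusted p = 0.0279, and 0.0642 without WT 1). The fold change was 4.27 without PRAK KO 1 and 2.65 without PRAK KO 2. The WT values of Csf1r rest on 7 and 10 counts, and only 1 WT library reached the filter. Csf3r, the receptor for granulocyte colony-stimulating factor, had 1.78 and 2.27 TPM in PRAK KO, against 0.92 and 1.10 TPM in WT, a non-overlapping difference that did not pass (0.95 ± 0.37 SE, adjusted p = 0.148, and 0.0296 without PRAK KO 1). Flt3, a receptor of dendritic cell progenitors, had 8.32 and 4.32 TPM in PRAK KO, against 4.07 and 8.61 TPM in WT, so the genotypes overlapped fully (-0.13 ± 0.45 SE, adjusted p = 0.873). Its sign turned without PRAK KO 2 (0.23), without WT 2 (0.55) and on the log2(TPM + 0.1) scale (0.02).

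Of the 2 lineage factor genes 1 was called, Cebpa, where 5.14% of all genes tested were called higher. Cebpa passed the filter through the PRAK KO libraries alone, so it could enter the test only by being higher there. Spi1, which encodes PU.1 (chromosome 2, 91082374 to 91115759), had 13.5 and 11.4 TPM in PRAK KO 1 and 2, against 1.38 in WT 1 and 4.76 in WT 2. The WT mice differed 3.52-fold in CPM, and the change of 1.87 ± 0.56 (log2, SE) did not pass (adjusted p = 0.0840, and 0.00798 without WT 2). Cebpa, which encodes C/EBP alpha, had 0.85 and 1.77 TPM in PRAK KO, against 0.18 and 0.21 TPM in WT, where it rests on 5 and 6 counts. It rose (log2 fold change 2.63 ± 0.59 SE, adjusted p = 0.0443), a call lost without WT 1 (0.160) or WT 2 (0.136), and was 1.94 without PRAK KO 2.

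PU.1 binds purine-rich sites with the core GAGGAA, and promoters were searched for these letters on both strands because Spi1 is a member and most myeloid members lay higher together. RefSeq promoters (GRCm38.p6, 250 bases before to 50 after a start site) were at hand for 24 of the 33 genes. The letters were found in 13 of the 21 promoters of the 16 myeloid genes, which belong to 9 of these genes, and in 28.3% of the 32851 promoters of the table. Among the B cell genes, where PU.1 is also active, 1 of 4 with a promoter held them, Cd79a. Shown are the promoters of Clec7a and Itgam, which rose, of Ly6g, which fell, and of Cd79a, each 5' to 3' with GAGGAA or its reverse complement in capitals. Clec7a and Ly6g each have another start site in the table, whose promoter overlaps the one shown. Fcgr3 and Apoe also have overlapping promoters, so the count of promoters holds near copies.
Clec7a (chr6:129472730-129473029, minus strand): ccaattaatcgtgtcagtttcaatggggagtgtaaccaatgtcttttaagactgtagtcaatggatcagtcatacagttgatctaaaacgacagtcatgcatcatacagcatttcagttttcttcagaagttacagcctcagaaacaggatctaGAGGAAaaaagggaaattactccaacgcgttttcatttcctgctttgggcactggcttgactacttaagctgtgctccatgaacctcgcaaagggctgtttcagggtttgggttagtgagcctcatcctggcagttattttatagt
Itgam (chr7:128062390-128062689, plus strand): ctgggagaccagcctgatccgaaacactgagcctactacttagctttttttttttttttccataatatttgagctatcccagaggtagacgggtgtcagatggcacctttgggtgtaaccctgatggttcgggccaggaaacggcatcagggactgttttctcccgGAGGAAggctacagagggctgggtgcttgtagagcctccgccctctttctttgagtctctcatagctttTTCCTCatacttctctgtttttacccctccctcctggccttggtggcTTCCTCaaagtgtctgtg
Ly6g (chr15:75155011-75155310, plus strand): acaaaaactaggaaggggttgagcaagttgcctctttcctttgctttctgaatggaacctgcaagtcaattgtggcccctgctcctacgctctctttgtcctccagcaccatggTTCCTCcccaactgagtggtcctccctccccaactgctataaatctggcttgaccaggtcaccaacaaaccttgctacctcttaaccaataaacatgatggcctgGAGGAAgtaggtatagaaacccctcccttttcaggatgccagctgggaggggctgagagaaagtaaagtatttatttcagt
Cd79a (chr7:24897247-24897546, plus strand): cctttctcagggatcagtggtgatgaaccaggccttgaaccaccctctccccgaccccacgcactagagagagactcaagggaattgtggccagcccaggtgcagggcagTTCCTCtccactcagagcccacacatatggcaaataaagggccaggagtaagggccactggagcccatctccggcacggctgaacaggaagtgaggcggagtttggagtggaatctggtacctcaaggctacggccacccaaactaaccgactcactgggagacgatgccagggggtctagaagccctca
Itgam held 3 matches, Ly6g 2, Clec7a 1 and Cd79a 1, so matches stood both in genes that were higher and in the gene that was lower in PRAK KO. Mpeg1, Fcer1g, Lyz2, Itgax and Cebpa also rose and held 0 matches in this window. Fcgr3, which rose, held a match. Ctss, Cd68, Apoe, Csf3r and S100a8, which were not called, held matches as well. A match describes letters and is not a measured binding site.

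Granulocyte genes gave 2 opposite pictures. S100a8 and S100a9, neighbouring genes whose products form calprotectin, had few counts outside PRAK KO 2. S100a8 had 6 counts in PRAK KO 1 and 45 in PRAK KO 2, against 3 in WT 1 and 1 in WT 2, or 1.62 and 11.7 TPM against 0.79 and 0.26 TPM. S100a9 had 7 and 75 counts in PRAK KO, against 2 and 7 in WT, or 1.39 and 14.3 TPM against 0.38 and 1.33 TPM. Both were under the filter on low counts, and with no filter their fold changes of 3.52 and 3.08 did not pass (adjusted p = 0.117 and 0.186). The high value came from 1 library, PRAK KO 2.

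Ly6g, the surface marker of neutrophils (chromosome 15, 75155261 to 75159128), fell. It had 3.22 and 2.14 TPM in PRAK KO 1 and 2, against 15.7 and 17.6 TPM in WT 1 and 2, or 29 and 20 counts against 146 and 165. The genotypes did not overlap, and the log2 fold change was -2.74 ± 0.31 (SE, adjusted p = 0.00832). The call held in each of the 4 fits that left out a library. Ly6g belongs to a family of similar genes and had fractional counts in both WT libraries, so the division of its reads within the family is uncertain. Apoe, which encodes the lipid carrier apolipoprotein E made by macrophages, had 17.3 and 6.5 TPM in PRAK KO, against 5.46 and 6.49 TPM in WT. It was high in PRAK KO 1 alone and did not pass (0.87 ± 0.46 SE, adjusted p = 0.259, and 0.000429 without PRAK KO 2).

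**Figure D2:**
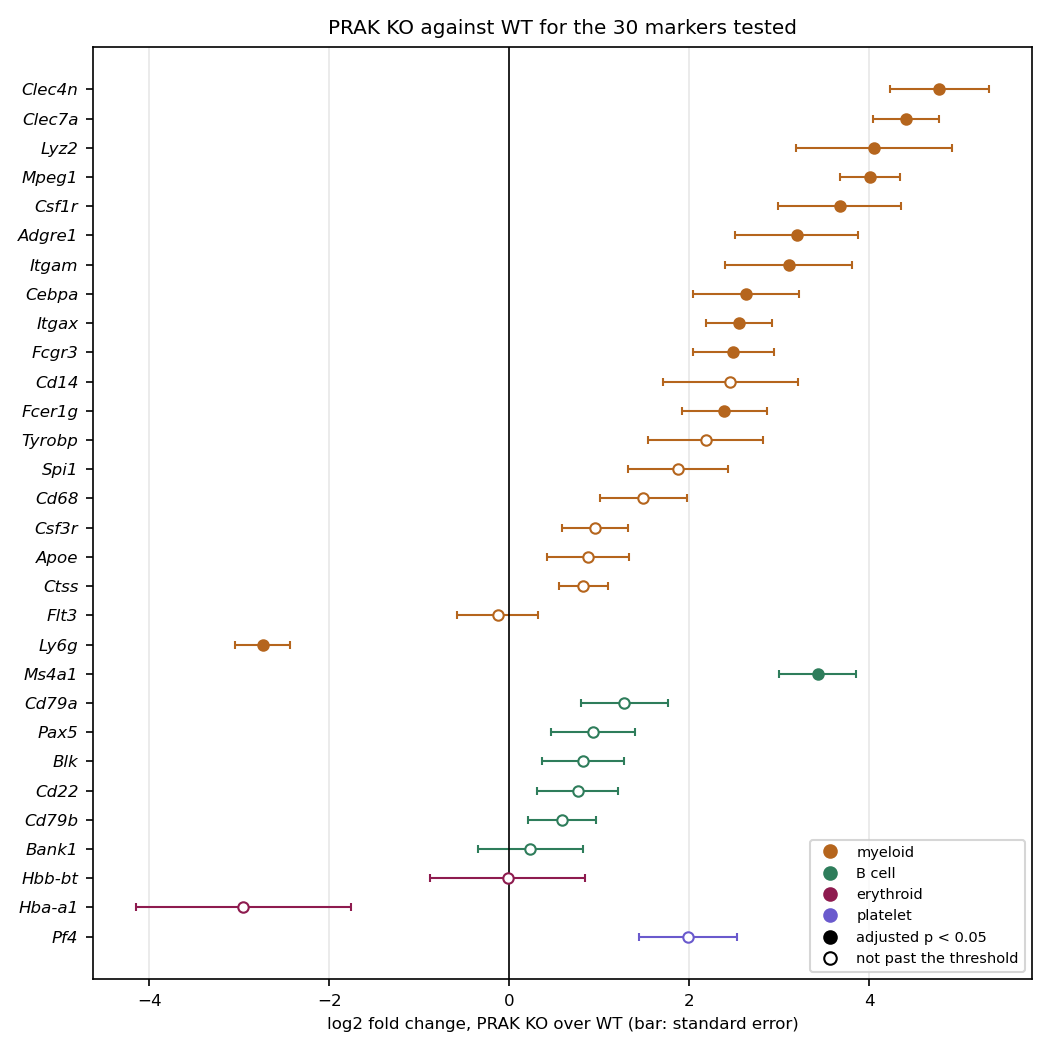
Log2 fold change of PRAK KO over WT with its standard error for the 30 markers tested, by lineage, with filled points for an adjusted p under 0.05. The 11 myeloid genes that rose lie between 2.39 and 4.78, Ly6g lies at -2.74, and of the B cell genes Ms4a1 is filled.

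Among the B cell genes Ms4a1 rose, and the WT mice stood apart from each other. Of 7 genes, all tested, 1 rose and 0 fell with edgeR, where 5.14% of all genes tested were called higher and 8.23% lower. At an unadjusted p under 0.05 stood 2 of the 7, both higher, and 4014 of all 12680 genes tested, in either direction. DESeq2 called 2 of the 7 higher, and 988 of all genes. The median log2 fold change was 0.82. Ms4a1, which encodes CD20 (chromosome 19, 11249679 to 11266149), had 6.41 and 4.88 TPM in PRAK KO 1 and 2, against 0.32 and 0.64 TPM in WT 1 and 2. Its WT values rest on 7 and 14 counts, and only 1 WT library reached the filter. It rose (log2 fold change 3.43 ± 0.43 SE, adjusted p = 0.0102), or by 4.02 without WT 2, and was called in each fit with a library left out. The other 6 genes lay between 0.23 and 1.28 and did not pass.

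The antigen receptor chains and their companions differed most between the WT mice. Cd79a had 38.0 and 37.4 TPM in PRAK KO, against 7.30 TPM in WT 1 and 21.5 in WT 2 (log2 fold change 1.28 ± 0.48 SE, adjusted p = 0.142). Cd79b had 15.3 and 16.4 TPM in PRAK KO, against 6.4 and 13.2 in WT (0.59 ± 0.38 SE, adjusted p = 0.345). The PRAK KO values of both chains were close together, and the WT values were not. Blk, a Src-family kinase gene of B cells, had 11.7 TPM in both PRAK KO libraries, against 3.36 and 8.94 in WT (0.82, adjusted p = 0.280). Cd22, an inhibitory receptor gene of B cells, had 13.9 and 12.7 TPM in PRAK KO, against 3.94 and 10.8 in WT (0.76, adjusted p = 0.305). For these 4 genes both PRAK KO libraries were above both WT libraries, as for 31.7% of all genes tested. Pax5, the lineage factor gene, had 11.5 and 5.75 TPM in PRAK KO, against 2.46 and 4.79 in WT (0.93, adjusted p = 0.241). Bank1, a B cell scaffold gene, had 9.83 and 3.87 TPM in PRAK KO, against 3.17 and 7.56 in WT (0.23, adjusted p = 0.815). Both were higher in PRAK KO 1 than in PRAK KO 2, and in CPM the genotypes overlapped for both genes.

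All 7 B cell genes were higher in WT 2 than in WT 1, by 2.03 to 3.03 times in CPM. Without WT 2 the median log2 fold change of the 7 was 1.72, and without WT 1 it was 0.27. Fits without a WT library take their spread from the PRAK KO pair, which was the closer pair for these genes. The ratio of PRAK KO 2 over PRAK KO 1 in CPM was 1.06 for Cd79a, 1.07 for Blk and 1.00 for Cd22. The sign of Bank1 turned without PRAK KO 1 (-0.54) and without WT 1 (-0.30).

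Red cell and platelet genes had few counts. Of 4 genes 3 were tested and 0 rose or fell with edgeR, against 5.14% of all genes tested called higher and 8.23% lower. At an unadjusted p under 0.05 stood 1 of them, Pf4, which was higher, and 4014 of all 12680 genes tested, in either direction. DESeq2 called 0 of them. Hba-a1, an alpha globin gene, had 0 counts in PRAK KO 1 and 11.7 in PRAK KO 2, against 18.8 in WT 1 and 71.0 in WT 2. Hba-a2 is a near-identical copy with 15 expected counts in PRAK KO 1 and 0 in WT 2. Reads of the copies can be shared, so the 0 of Hba-a1 sets no limit on its level. Together the pair had 15 and 23 expected counts in PRAK KO against 28 and 71 in WT. Hba-a1 alone did not pass (log2 fold change -2.96 ± 1.2 SE, adjusted p = 0.160), and passed as lower without PRAK KO 2 (0.0419), where the 1 PRAK KO library left had 0 counts. Hbb-bt, a beta globin gene, had 5 and 26 counts in PRAK KO, against 22 and 7.7 in WT, and together with its near copy Hbb-bs 5 and 26 against 22 and 57. The Hbb-bt values of the genotypes overlapped (-0.02, adjusted p = 0.991, with a sign that turned with scaling by library size, 0.08). Both globin pairs were highest in WT 2.

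Pf4 and Ppbp, neighbouring genes for chemokines stored in platelets, had higher values in both PRAK KO libraries, on few counts, and did not pass. Pf4 had 13 and 17 counts in PRAK KO 1 and 2, against 3 and 4 in WT 1 and 2 (log2 fold change 1.99 ± 0.54 SE, adjusted p = 0.0700, and 0.0318 without PRAK KO 1). Ppbp had 4 and 11 counts in PRAK KO, against 0 and 3 in WT, and was under the filter. Pf4 passed the filter through the PRAK KO libraries alone.

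The markers did not keep 1 ratio between the mice of a genotype. The ratio of PRAK KO 2 over PRAK KO 1 in CPM ran from 0.407 for Apoe to 11.1 for S100a9 among the 22 myeloid genes, with a 95% exact binomial (Clopper-Pearson) interval, covering counting error only, above 1 for 15 of them, below 1 for 3 and across 1 for 4. It was 5.09 (4.45 to 5.83) for Lyz2, 3.08 (2.27 to 4.22) for Csf1r and 2.39 (2.00 to 2.85) for Fcer1g. It was 0.775 (0.669 to 0.898) for Clec7a, 0.554 (0.456 to 0.671) for Flt3 and 0.407 (0.313 to 0.524) for Apoe. The intervals of the first 3 genes lie above those of the last 3, so the mix of myeloid transcripts differed between the PRAK KO libraries. B cell genes ran from 0.413 (Bank1) to 1.15 (Cd79b), with the interval across 1 for 5 of 7 and below 1 for Bank1 and Pax5. No share of all genes stands beside these interval counts. Over all genes the PRAK KO libraries differed beyond sampling noise (chi-square per gene 59.1), and the listed T cell genes ran from 0.807 to 1.83. The interval counts alone therefore do not set the markers apart from other genes.

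**Figure D3:**
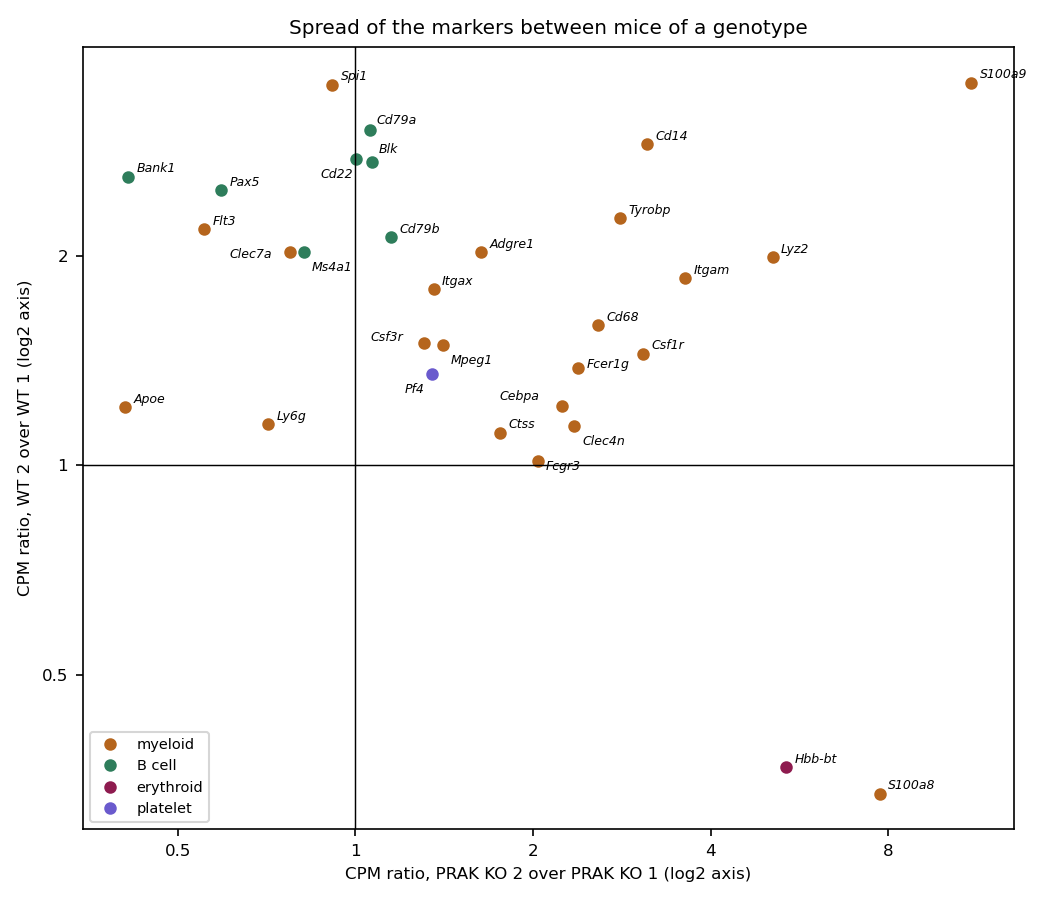
Ratio of PRAK KO 2 over PRAK KO 1 (horizontal) and of WT 2 over WT 1 (vertical) in CPM for each marker, both on log2 axes, without Hba-a1 and Ppbp, which have a library at 0. The B cell genes lie between 2.03 and 3.03 on the WT axis, and the myeloid genes spread from 0.407 to 11.1 on the PRAK KO axis.

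Other listed genes of the same cell types, which are no members, were set beside this spread where they had at least 20 counts over the PRAK KO libraries. Of 14 granulocyte and mast cell genes 12 had an interval above 1 and 0 below, with a median ratio of 4.20. Among them were Mpo (35 and 145 counts in PRAK KO 1 and 2) and Ngp (5 and 58). Of 13 dendritic cell genes 2 lay above 1 and 7 below, with a median of 0.847, among them Tlr9 (110 and 39 counts in PRAK KO 1 and 2). Of 19 macrophage and monocyte genes 7 lay above 1 and 5 below, with a median of 1.11. Clec4e (133 and 427 counts in PRAK KO 1 and 2) was among the upper ones and C1qa (20 and 4) among the lower ones. Most granulocyte genes lay on the side of Lyz2, S100a8 and S100a9 in PRAK KO 2. The members Ly6g (0.711, 0.381 to 1.30) and Csf3r (1.31, 0.908 to 1.89) had intervals across 1. More dendritic cell genes lay on the side of Flt3 in PRAK KO 1 than on the other. The member Itgax, the CD11c chain of dendritic cells, lay above 1 (1.357, 1.121 to 1.645). Macrophage and monocyte genes lay on both sides. Some dendritic cell genes below 1 had many counts in WT too, as Ccl22 (2146 and 1539 in PRAK KO 1 and 2, 2427 and 1735 in WT 1 and 2). Whether their ratios follow dendritic cells was not tested. No share of all genes stands beside these counts either.

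In the further lists counts are to be read against the 5.14% of all genes tested that were called higher and the 8.23% called lower. Of 14 other macrophage and monocyte genes tested 6 rose and 0 fell, with a median log2 fold change of 2.00, and 5 of the 14 had passed the filter through the PRAK KO libraries alone. Clec4d, another C-type lectin receptor gene, had 3.25 and 9.58 TPM in PRAK KO, against 0 and 0.28 in WT (adjusted p = 0.0329), and is among those 5, with 0 and 4 counts in WT. Cybb, the phagocyte oxidase subunit, had 11.8 and 13.0 TPM in PRAK KO, against 1.11 and 2.83 in WT (2.55 ± 0.44 SE, adjusted p = 0.0232). Of 13 other dendritic cell genes 2 rose and 0 fell, of 13 other B cell genes 2 rose and 0 fell, and of 9 granulocyte and mast cell genes 1 rose and 0 fell. The granulocyte gene is Mmp8, a collagenase gene of neutrophils with 5 and 1 counts in WT, which passed the filter through the PRAK KO libraries alone, and of the 3 granulocyte genes at the filter in both WT libraries 0 rose. Mmp8 did not pass without WT 1 (adjusted p = 0.104) or WT 2 (0.182). Among 17 genes of lectin and tyrosine-motif receptor signalling, a list that shares Clec4d and Clec4e with the macrophage list, 3 rose and 0 fell. The shares of 5.14% and 8.23% hold for the fit with all 4 libraries. With a library left out the number that rose in each of these lists moved both up and down, and some genes fell. The numbers over all genes moved as well, so these list counts are not set against the 2 shares. Cybb did not pass without PRAK KO 1 (adjusted p = 0.133) or PRAK KO 2 (0.144) and had a fold change of 3.41 without WT 2.

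Of 7 class II antigen presentation genes, which B cells and myeloid cells both express, 2 rose and 1 fell, with a median log2 fold change of 1.44. Both PRAK KO libraries lay above both WT libraries for 5 of the 7 and below for 1. Over all genes tested these shares were 31.7% and 31.4%. Cd74, the invariant chain, had 484 and 406 TPM in PRAK KO, against 80.5 and 174 TPM in WT (1.69 ± 0.37 SE, adjusted p = 0.0412). H2-Ab1 fell, with 126 and 98.7 TPM in PRAK KO against 246 and 289.7 TPM in WT (-1.36 ± 0.16 SE, adjusted p = 0.00884). H2-Ab1 passed in each fit with a library left out, whereas Cd74 did not without PRAK KO 1 (0.378) or PRAK KO 2 (0.330) and had a fold change of 2.39 without WT 2. In some other lists genes fell. Of 4 stromal genes tested 3 fell, of 5 other red cell genes 1 fell (Epor, the erythropoietin receptor gene), and of 4 other platelet genes 1 fell (Selp, the P-selectin gene). Of 16 T cell genes 2 rose (Cd5 and Cd6) and 0 fell, with a median of -0.12. Among 9 NK cell and CD8 T cell genes 1 rose (Nkg7, a granule membrane protein gene) and 0 fell. Cd8a and Cd8b1, the chains of the CD8 co-receptor, did not pass (adjusted p = 0.0830 and 0.0717). Cd8a had 3825 and 2087 expected counts in PRAK KO 1 and 2, against 231 and 939 in WT 1 and 2, and Cd8b1 had 2016 and 1551 against 372 and 866, so both genes lay higher in both PRAK KO libraries. With a library left out 1 to 3 stromal genes fell, Epor and Selp fell in each fit, and Cd5 and Cd6 did not pass without WT 1 (0.107 and 0.326) or WT 2 (0.198 and 0.378). The counts of the T cell list changed in both directions in these fits, as did the counts over all genes. Nkg7 did not pass without PRAK KO 2 (0.0734), WT 1 (0.206) or WT 2 (0.110). Whether such cells, myeloid cells or B cells were carried over in different numbers was not tested.

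**Figure D4:**
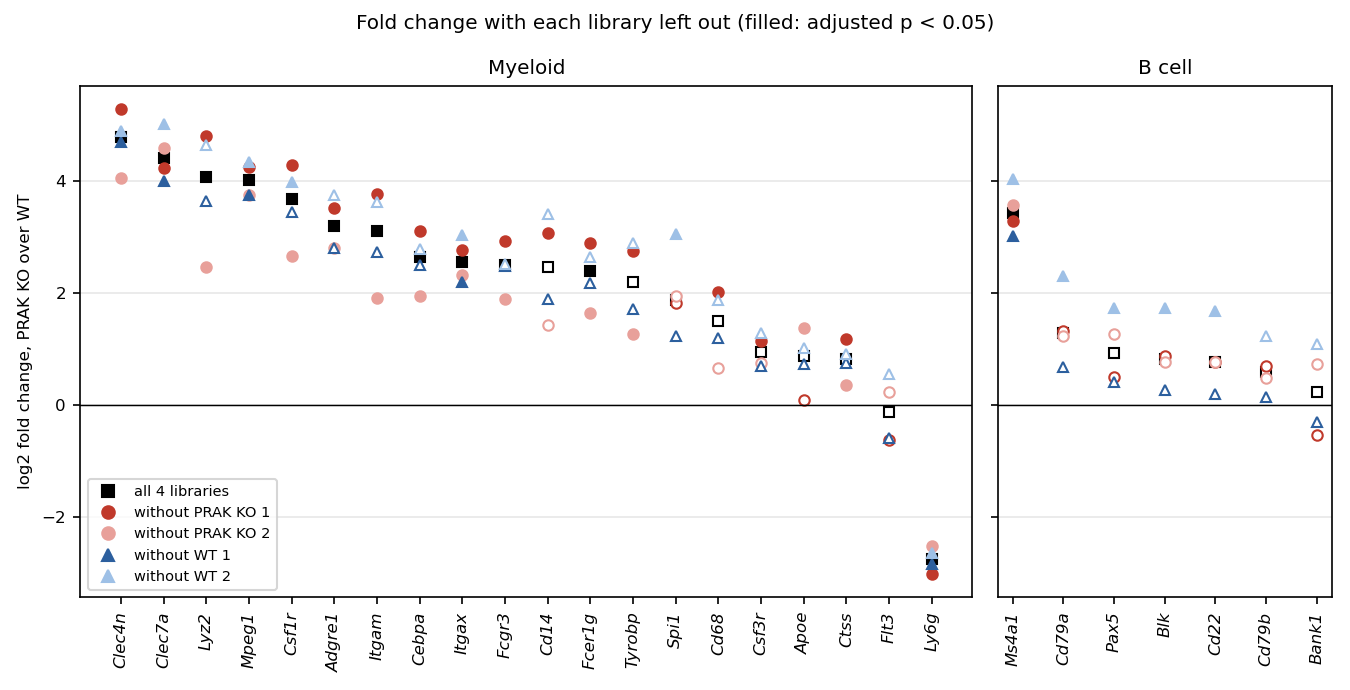
Log2 fold change of PRAK KO over WT for the myeloid and B cell genes tested, with all 4 libraries (squares) and with each library left out, filled where the adjusted p was under 0.05. Clec7a, Clec4n, Mpeg1, Itgax, Ly6g and Ms4a1 are filled in every fit, while Lyz2 and Itgam are open without either WT library.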

How the data were processed

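Libraries of total RNA from 2 PRAK KO and 2 WT cultures were sequenced on a BGISEQ platform, per the labels' protocols. The authors deposited, per gene and library, expected counts (estimated reads, not normalised), FPKM and TPM. FPKM and TPM are length-scaled values of the authors, per the file headers, and FPKM was not used. GRCm38.p6, RSEM 1.2.12, HISAT2 2.0.4 and Bowtie2 2.2.5 are named in the submitters' processing notes. The kit, the strand and the annotation are not given in the sources, so reads of overlapping genes cannot be told apart.

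Expected counts were rounded to whole numbers and filtered with filterByExpr (minimum count 10, minimum total 15), which left 12680 of 17921 genes. PRAK KO was compared with WT by the quasi-likelihood test of edgeR 4.0.16 (R 4.3.3) with TMM scaling, robust dispersion and a genotype term. Adjusted p-values are Benjamini-Hochberg values over all genes tested and, with no other tool named, come from this fit. A standard error is the fold change divided by the root of the F statistic. Non-overlap was judged on TMM-scaled CPM. With 2 libraries a genotype the residual degrees of freedom were 2. Alternatives were other scalings and filters, DESeq2 1.42.0, limma 3.58.1 on log2(TPM + 0.1) and log2(TPM + 1), mouse number as a block, and leaving out each library. The steps were tested on simulated data.

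Coordinates come from the RefSeq annotation of GRCm38.p6, matched by gene ID. The members and lists were chosen with earlier results of these data known. All 33 members are named, and of other lists up to 4 genes past the threshold with the largest change. Tlr9, Ccl22, C1qa, Mpo, Ngp, Cd3e, Cd8a and Cd8b1 were chosen after their values were seen. Listed genes missing from the table were not analysed here, and some listed genes are not reported here. Libraries of 1 genotype differed beyond sampling noise (chi-square per gene 59.1 for PRAK KO and 7.22 for WT).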

Additional observations from a re-analysis of the deposited data

How the results depend on the processing

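The 11 myeloid calls of a rise became 10 to 16 in number with other scalings, filters, DESeq2 or the block, 7 with limma on log2(TPM + 1), and 4 to 16 with a library left out. The B cell count of 1 became 2 with DESeq2 and 1 to 5 with a library left out. The red cell and platelet count of 0 became 1 with limma on log2(TPM + 0.1) and 1 on log2(TPM + 1), and 0 to 1 with a library left out. Over all genes 1695 were called, 586 to 5894 with a library left out. Both genotypes carry mouse numbers 1 and 2, and nothing in the labels pairs them. Deviations of same-numbered libraries correlated at 0.197 across genes, and with mouse number as a replicate block 2935 genes were called. The sign turned for Flt3 with limma (0.018 and 0.013) and between -0.62 and 0.55 with a library left out (0.23 without PRAK KO 2), for Bank1 between -0.54 and 1.09 (-0.30 without WT 1), and for Hbb-bt with library size alone (0.079) and between -1.66 and 0.86 (0.735 without PRAK KO 1). The cause was not tested. Counts under 10 in a WT library, as for Adgre1, Cebpa, Clec4n, Csf1r and Ms4a1, limit those folds.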
